A study of Mus musculus with 6 samples.

Results

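STRIPAK is a protein assembly in which protein phosphatase 2A (PP2A) is held next to protein kinases. Its transcripts are described here in MEFs, immortalized fibroblasts derived from mouse embryos, with and without PME-1. The genes were chosen by symbol: 3 striatins (Strn, Strn3, Strn4), Strip2, Mob4, Pdcd10, Sike1 and the kinase genes Stk24 and Stk25. All 9 symbols were present among the 53762 in the count files, and all 9 were among the 15223 genes with enough reads to be tested. The study sequenced RNA from 3 wild-type (WT) and 3 PME-1 knockout (KO) libraries, all from cells collected 24 hours after seeding in high glucose medium. PME-1 is the product of Ppme1 and demethylates the PP2A catalytic subunit. The labels give no sex, strain or clone of the MEFs and do not say that the replicates were separate cultures, so the spread that p-values rest on here may be technical.

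Striatins are the scaffolds of the complex and serve as regulatory B subunits of PP2A. They bind the PP2A scaffold and catalytic subunits, the MOB family protein encoded by Mob4, a STRIP protein and, through the adaptor encoded by Pdcd10, kinases of the germinal center kinase III (GCKIII) group such as those encoded by Stk24 and Stk25. Sike1 encodes a partner of SLMAP, through which STRIPAK PP2A is known to dephosphorylate the Hippo kinases MST1 and MST2, and the Hippo pathway in turn restrains the coactivators YAP and TAZ.

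Total counts ranged from 34450993 to 44116310 per library. Levels are given as CPM (counts divided by the effective library size), where a floor of 3 counts was 0.0689 to 0.0881 CPM. Ppme1 was at 78.5, 80.7 and 86.6 CPM in the WT libraries and at 18.2, 14.9 and 18.9 CPM in the KO libraries, so transcripts were reduced 4.72-fold (4.96-fold without WT 1 and KO 1) but not absent (adjusted p = 0.000563, edgeR's quasi-likelihood test with Benjamini-Hochberg adjustment, as for every adjusted p below unless another tool is named). Of the genes tested, 7.4% passed the threshold of 0.05 (3.55% higher and 3.86% lower in KO). Of 10 fibroblast markers none was at 0 in all libraries, and their summed level was 15730 to 21580 CPM in WT and 12820 to 14950 CPM in KO. Col3a1, part of that sum, varied within both groups, at 525, 3539 and 3375 CPM in WT and at 2762, 797.5 and 824 CPM in KO (adjusted p = 0.628). Lum and Pdgfra were low, at most 2.61 and 14.2 CPM in any library. Dcn was at 1.05 to 10.05 CPM in WT and at 12.5 to 63.3 CPM in KO, and was not called (adjusted p = 0.225). Thy1 was at 1.03 to 3.47 CPM in WT and at 4.58 to 9.36 CPM in KO, and was not called (adjusted p = 0.134). Col1a1 and Pdgfrb were called lower in KO (adjusted p = 0.0209 and 0.0233), and no fibroblast marker was called higher. The summed epithelial markers were 8.54 to 32.0 CPM in WT and 127 to 147 CPM in KO, with Krt5 and Krt14 at 0. Mean levels in WT and KO were 1.39 and 75.5 CPM for Krt18, 14.3 and 53.3 CPM for Krt19 and 0.23 and 3.44 CPM for Krt8. They were 0.17 and 1.50 CPM for Cldn4, 0.64 and 0.68 CPM for Epcam and 0.27 and 0.10 CPM for Cdh1. Only Krt18 and Krt8 were called (adjusted p = 0.000753 and 0.0109). Sums in WT and KO were at most 2.08 and 3.44 CPM for 6 endothelial, 2.87 and 5.02 CPM for 8 blood cell, 41.3 and 37.7 CPM for 8 neural and 2.10 and 2.17 CPM for 8 muscle markers. Within these sets the neural marker Sox2 and the endothelial marker Tek were called higher in KO (adjusted p = 0.00134 and 0.0241). The neural marker Map2 was called lower (adjusted p = 0.0209), and no blood cell or muscle marker was called. From WT to KO, mean CPM rose from 2.03 to 14.1 for Sox2 and from 0.19 to 1.54 for Tek. For Map2 the mean fell from 23.0 to 13.3. Tie1, Emcn, Adgre1, Cd3e, Olig2, Sox10, Snap25 and Myod1 were at 0 in every library. Xist was at 370 to 490 CPM in WT and at most 0.31 CPM in KO, while Ddx3y, Eif2s3y, Kdm5d and Uty of the Y chromosome had 0 counts in WT and 19.5 to 71.8 CPM in KO, so sex markers and genotype cannot be told apart. WT 1 and KO 1 each differed from the rest of their group. The chi-square per degree of freedom between libraries was 12.73 for WT 2 with WT 3 and 13.14 for KO 2 with KO 3, but 115 to 137 within a group for pairs with WT 1 or KO 1, and it was lower between WT 1 and KO 2 or KO 3 (90.1 and 82.3) than between WT 1 and the other WT libraries. Fold changes of the STRIPAK genes and of the named list genes are therefore given with and without WT 1 and KO 1. Without them 48% of genes passed, and in that setting genotype cannot be told apart from any other difference of WT 2 and WT 3 from KO 2 and KO 3.

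In the comparison of KO with WT, which asks how transcript levels differ without PME-1, 0 of the 9 STRIPAK genes were called by edgeR, against 7.4% of all genes tested. None had an unadjusted p under 0.05, and DESeq2 and limma-voom also called 0. Of the 9 log2 fold changes, 6 were below 0 and 3 above, with a median of -0.06 against 0.01 over all genes tested. The estimates ran from -0.22 for Strn3 to 0.31 for Strip2. For the 8 genes other than Strip2 the 95% intervals lay between -0.56 and 0.40, and the bound farthest from 0 corresponds to a 1.48-fold lower level. The interval of Strip2, with 25 to 65 counts per library, was much wider, from -0.88 to 1.501. A p above the threshold does not show that the levels were equal.

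**Figure D1:**
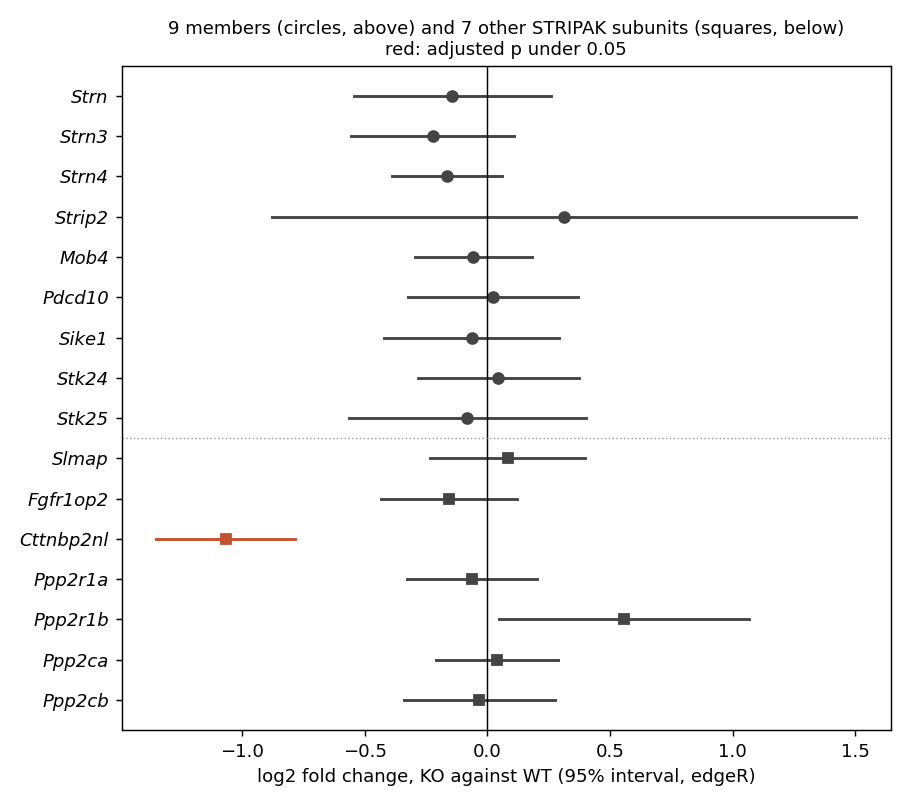
Log2 fold change of KO against WT (x axis) with its 95% interval for the 9 STRIPAK genes (circles) and 7 other tested subunits (squares). Among the genes drawn only Cttnbp2nl, in red, passed the threshold, at -1.07.

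The striatins were abundant, and none was called between genotypes with all libraries. Strn4 was at 125, 137 and 130 CPM in WT and at 118, 120 and 112 CPM in KO. Every KO library was thus below every WT library, with means of 131 ± 6.21 and 117 ± 4.27 CPM (SD, n = 3). The log2 fold change was -0.16 (SE 0.10, adjusted p = 0.374). Strn4 was the only one of the 9 genes whose groups did not overlap, a pattern that 30% of all tested genes showed. Without WT 1 and KO 1 its log2 fold change was -0.20 (adjusted p = 0.0238).

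Strn3 was at 122, 100 and 104 CPM in WT and at 78.5, 98.9 and 102 CPM in KO. The highest library was WT 1 and the lowest KO 1, while the other 4 libraries lay close together. Its log2 fold change of -0.22 (SE 0.14, adjusted p = 0.411) became -0.03 without those libraries. Strn, which encodes striatin itself, had the same extremes: 92.4, 69.0 and 77.7 CPM in WT and 59.2, 83.4 and 74.1 CPM in KO. The log2 fold change of Strn was -0.14 (SE 0.17, adjusted p = 0.684), and it was 0.10 without WT 1 and KO 1. A processed pseudogene, Gm12079, matches 244 bases of the Strn transcript at 99.2% identity, and it held 2 counts in all, both in WT 3.

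Per kilobase of exon, Strn3 and Strn4 stood at similar levels and Strn lower, at a mean of 15.2, 15.5 and 8.57 CPM per kilobase over the 6 libraries. Of the length-scaled striatin signal, Strn gave 19.4% to 23.9%, Strn3 35.5% to 41.2% and Strn4 35.4% to 44.4% of a library. The mean share of Strn4 was 39.5% ± 3.86 in WT and 40.0% ± 3.87 in KO (SD, n = 3). The genotypes overlapped for all 3 shares, and the KO minus WT differences were 0.57, -1.12 and 0.55 percentage points for Strn, Strn3 and Strn4. With the longest transcript as the length, Strn made up 11.7% to 14.7%, so Strn was the lowest of the 3 under both lengths.

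Among the smaller subunits Mob4 varied least. Mob4, the MOB protein gene of the complex, was at 62.1, 57.2 and 55.3 CPM in WT and at 57.5, 56.8 and 53.3 CPM in KO. Its range of 0.22 on the log2 scale over the 6 libraries was the narrowest of the 9 genes. The log2 fold change of Mob4 was -0.06 (SE 0.10, adjusted p = 0.796), and -0.03 without WT 1 and KO 1. Pdcd10, also known as CCM3, which links GCKIII kinases to striatins, was at 43.7, 45.1 and 38.6 CPM in WT and at 42.7, 36.7 and 50.05 CPM in KO, with the lowest and the highest library both in the KO group. Its log2 fold change was 0.02 (SE 0.14, adjusted p = 0.95), and 0.05 without WT 1 and KO 1. A pseudogene with 99.4% identity over 639 bases, Gm14253, held 2.06 to 3.33 CPM, and how reads were divided between it and Pdcd10 is not given in the sources used here. Sike1 was at 38.5, 42.8 and 36.4 CPM in WT and at 44.7, 33.8 and 34.01 CPM in KO, where KO 1 was the highest of all 6 libraries. The log2 fold change of Sike1 was -0.06 (SE 0.15, adjusted p = 0.854), and it was -0.23 without WT 1 and KO 1 (adjusted p = 0.0871).

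Strip2, which encodes a scaffolding subunit, was near 1 CPM: 1.22, 0.92 and 0.94 CPM in WT and 1.34, 0.59 and 1.91 CPM in KO. The KO libraries held 52, 25 and 65 counts and enclosed the whole WT range. The log2 fold change of Strip2 was 0.31 (SE 0.50, adjusted p = 0.775), and 0.41 without WT 1 and KO 1.

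**Figure D2:**
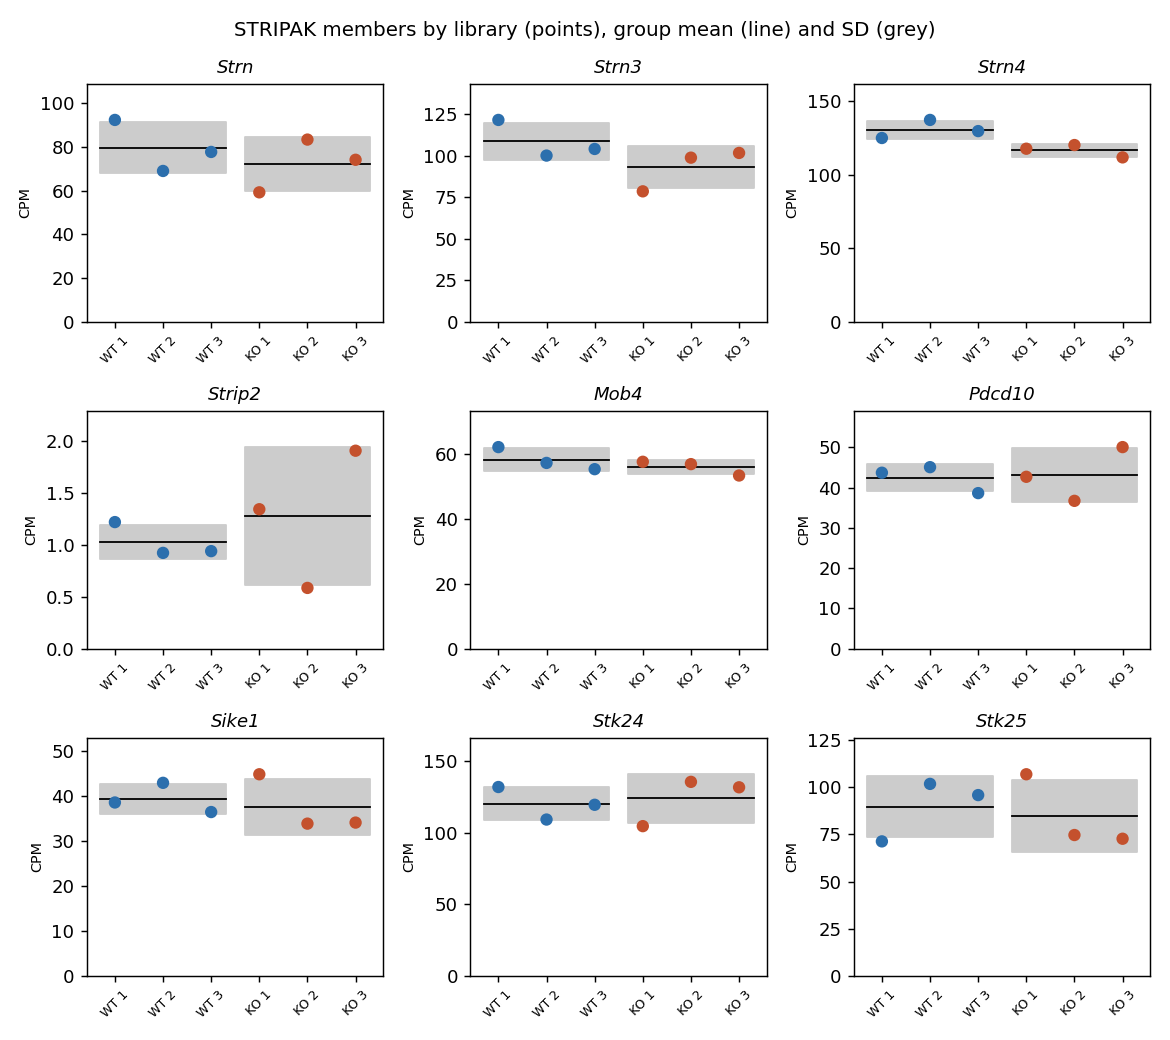
CPM (y axis, from 0) of each of the 9 STRIPAK genes in the 3 WT (blue) and 3 KO (red) libraries, with the group mean as a line and the SD as a grey band. The groups overlapped for every gene except Strn4, and WT 1 and KO 1 are at opposite extremes for Strn, Strn3 and Stk25.

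The kinase genes Stk24 and Stk25 stood in opposite orders across the libraries, and this split did not follow genotype. Stk24, which encodes MST3, was at 132, 109 and 119 CPM in WT and at 104, 135 and 132 CPM in KO. Stk25, which encodes a kinase of the Golgi also known as YSK1, was at 71.3, 102 and 95.9 CPM in WT and at 107, 74.7 and 72.7 CPM in KO. WT 1, KO 2 and KO 3 were thus the 3 highest libraries for Stk24 and the 3 lowest for Stk25. This split was not particular to the kinase genes. Deviations from the group means correlated positively between WT 1 and KO 2 or KO 3 (r = 0.36 and 0.32). The same held between KO 1 and WT 2 or WT 3 (r = 0.39 and 0.3). The share of all tested genes with this split was not counted. The log2 fold changes were 0.04 for Stk24 (SE 0.14, adjusted p = 0.894) and -0.08 for Stk25 (SE 0.20, adjusted p = 0.864).

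The ratio of Stk24 to Stk25 counts needs no scaling between libraries. It was 1.85 in WT 1, 1.07 in WT 2 and 1.25 in WT 3, and 0.98 in KO 1 and 1.81 in both KO 2 and KO 3. The 95% counting intervals (exact binomial) of WT 1 (1.76 to 1.94), KO 2 (1.74 to 1.89) and KO 3 (1.72 to 1.90) overlapped each other. They lay above those of WT 2 (1.03 to 1.12), WT 3 (1.196 to 1.298) and KO 1 (0.94 to 1.02). Such intervals cover counting error only, and the groups of libraries seen here are no groups of the study, so no test of them was made.

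Without WT 1 and KO 1, Stk25 was lower in KO (log2 fold change -0.42, adjusted p = 0.000286) and Stk24 higher (0.22, adjusted p = 0.0158). With Strn4 these made 3 of 9 genes called, 1 higher and 2 lower, against 48% of all genes in that setting (23.3% higher and 24.6% lower), and the part of the shared library pattern in these calls was not tested. With the third GCKIII gene, Stk26, at 0 to 7 counts per library, Stk24 made up 51.5% to 66.7% of the length-scaled GCKIII signal and Stk25 nearly all of the rest. With the longest transcript as the length, the share of Stk24 was 60.8% to 74.6%.

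Stk25 (ENSMUSG00000026277.14, chromosome 1, 93619751 to 93658659, minus strand, GRCm38) shares 1013 exonic bases with Farp2 on the opposite strand. Farp2, a guanine nucleotide exchange factor gene, was at 37.8, 18.3 and 20.5 CPM in WT and at 12.3, 29.0 and 25.4 CPM in KO. It was thus high in the libraries where Stk25 was low, and without WT 1 and KO 1 it was called higher (log2 fold change 0.49, adjusted p = 0.00562). In that setting 48% of all genes were called. The library kit keeps strand, but the strand setting of the counting is not given in the sources used here, and the part of shared reads in the Stk25 values was not tested.

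**Figure D3:**
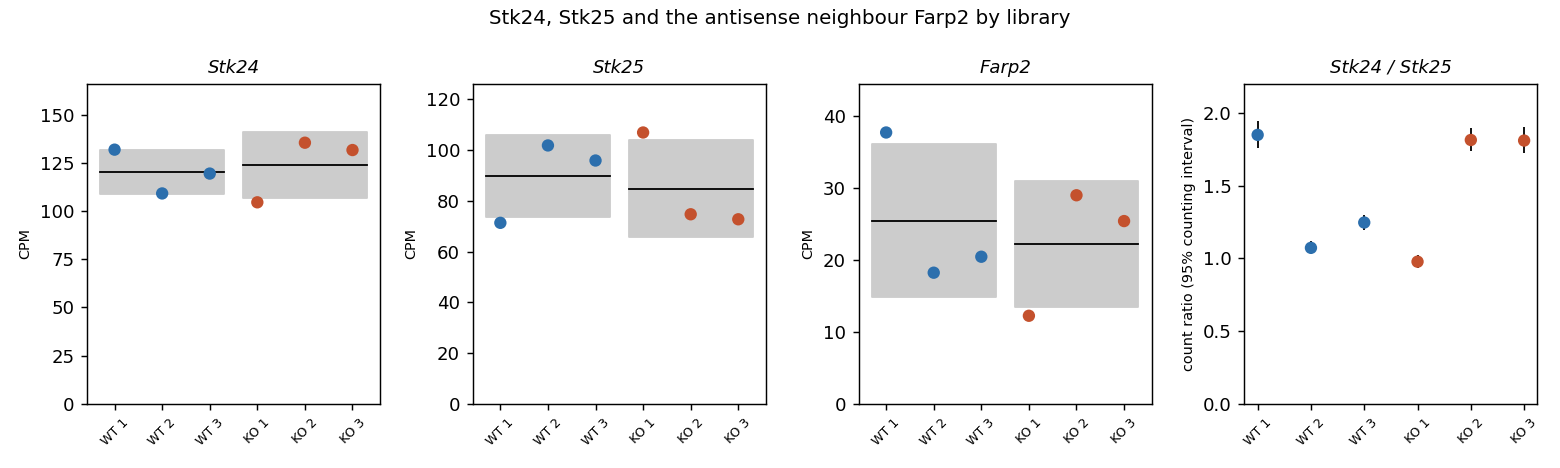
CPM (y axis, from 0) of Stk24, Stk25 and Farp2, with group mean (line) and SD (grey), and the ratio of Stk24 to Stk25 counts with 95% counting intervals, in the 3 WT (blue) and 3 KO (red) libraries. WT 1, KO 2 and KO 3 share a ratio between 1.81 and 1.85, and the other libraries lie between 0.98 and 1.25.

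Promoter sequences of RefSeq on GRCm38.p6, which run from 250 bases before to 50 after a start site, were matched by symbol for 7 of the 9 genes. They are shown for the 3 genes, among them Stk25, whose windows held ACTACA followed, after 2 bases of any kind, by TCCC, letters that resemble an element bound by the zinc finger factor ZNF143. The motif was chosen after the sequences had been seen, searched on both strands, and stands in capitals, read as GGGA and TGTAGT around 2 bases where it lies on the other strand.
Strn, chr17:78736512-78736811, minus strand: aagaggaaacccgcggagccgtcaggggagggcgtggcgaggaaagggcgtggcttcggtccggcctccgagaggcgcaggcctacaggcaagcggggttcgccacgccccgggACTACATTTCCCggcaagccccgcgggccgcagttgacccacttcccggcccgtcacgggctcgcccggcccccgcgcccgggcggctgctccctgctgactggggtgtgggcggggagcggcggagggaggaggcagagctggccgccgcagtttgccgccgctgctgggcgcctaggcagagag
Pdcd10, chr3:75556803-75557102, minus strand: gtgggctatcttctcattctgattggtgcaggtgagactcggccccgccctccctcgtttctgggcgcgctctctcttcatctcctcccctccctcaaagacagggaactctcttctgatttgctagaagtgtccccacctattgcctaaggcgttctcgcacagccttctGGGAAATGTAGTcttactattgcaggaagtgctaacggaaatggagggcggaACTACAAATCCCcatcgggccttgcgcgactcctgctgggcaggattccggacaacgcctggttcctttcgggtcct
Stk25, chr1:93635678-93635977, minus strand: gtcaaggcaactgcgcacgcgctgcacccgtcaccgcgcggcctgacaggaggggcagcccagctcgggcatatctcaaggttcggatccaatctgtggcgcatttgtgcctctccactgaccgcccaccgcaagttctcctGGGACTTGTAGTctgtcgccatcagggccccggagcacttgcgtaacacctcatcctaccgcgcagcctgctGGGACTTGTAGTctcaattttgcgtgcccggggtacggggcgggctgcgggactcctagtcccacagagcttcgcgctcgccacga
Strn held 1 match and Pdcd10 and Stk25 held 2 each. The Stk25 window, 93635678 to 93635977, lies inside the gene as placed above (93619751 to 93658659, minus strand). Its start site is thus not the outermost start of that gene model. Of all 32851 windows of 300 bases in the RefSeq table, 1.8% held at least 1 match. The 3 genes did not share a pattern over the libraries: Stk25 and Strn had their highest level in KO 1 and WT 1, respectively, and Pdcd10 in KO 3. GGGCGG was found in the windows of 6 of the 7 genes against 35.7% of all windows, and CCAAT in 4 of 7 against 37.4%, on either strand. Strn4 was the gene without GGGCGG, and its window had the lowest GC content of the 7, at 51.3%. A match describes letters and is not evidence of binding.

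By the rule for the gene with the smallest p, the genes whose log2 CPM was most like that of Strn4 over the 6 libraries, each centred on its mean, were Smap1, Ap3s2 and Gtf2b, with root mean square differences of 0.02, 0.03 and 0.03. Their log2 fold changes were -0.14, -0.20 and -0.13, and none was called (adjusted p = 0.486, 0.297 and 0.503).

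Among other subunits of the complex, Cttnbp2nl was lower in KO cells. It encodes a cortactin-binding protein that associates with striatins. Cttnbp2nl was at 94.0, 86.7 and 94.3 CPM in WT and at 38.9, 49.1 and 43.5 CPM in KO, so the groups were far apart. It fell 2.09-fold, from 91.7 ± 4.29 to 43.8 ± 5.12 CPM (log2 fold change -1.07, SE 0.12, adjusted p = 0.0041), and by 0.97 on the log2 scale without WT 1 and KO 1 (adjusted p = 1.97e-06). In GENCODE M21 (GRCm38) the gene, ENSMUSG00000062127.11, occupies 105001915 to 105053146 of chromosome 3, minus strand. Of 46 tested genes that start within 2.5 Mb of it, 1 was called higher and 1 lower, and their median log2 fold change was -0.13.

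In the list of 10 other subunits 7 were tested, of which 1 fell and 0 rose, against 3.86% of all genes lower and 3.55% higher, and the list median was -0.03 against 0.01 over all genes. The PP2A scaffold gene Ppp2r1a was the most abundant, at 281 to 298 CPM in WT and 251 to 298 CPM in KO (log2 fold change -0.06, adjusted p = 0.802). Its paralog Ppp2r1b was at 62.3, 41.1 and 51.0 CPM in WT and at 57.4, 87.8 and 81.8 CPM in KO. Ppp2r1b did not pass with all libraries (log2 fold change 0.56, SE 0.21, adjusted p = 0.189), and KO 1 lay within the WT range. The catalytic subunit genes Ppp2ca and Ppp2cb had log2 fold changes of 0.04 and -0.03 (adjusted p = 0.865 and 0.916). Slmap, which encodes the membrane protein that recruits the Hippo kinases, was at 0.08 (adjusted p = 0.776). Fgfr1op2, which encodes a relative of the Sike1 product, was at -0.16 (adjusted p = 0.501). Not tested were Stk26, Cttnbp2, with 6 counts in KO 3 and 0 elsewhere, and Traf3ip3, with 0 counts in every library. Without WT 1 and KO 1, Slmap (0.23, adjusted p = 0.0122) and Ppp2r1b (0.88, adjusted p = 3.84e-05) were called higher beside the lower Cttnbp2nl, against 48% of all genes called. In that setting Fgfr1op2 was at -0.02, Ppp2ca at 0.11, Ppp2cb at 0.13 and Ppp2r1a at 0.02, and none of these was called (adjusted p = 0.868, 0.132, 0.109 and 0.771).

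**Figure D4:**
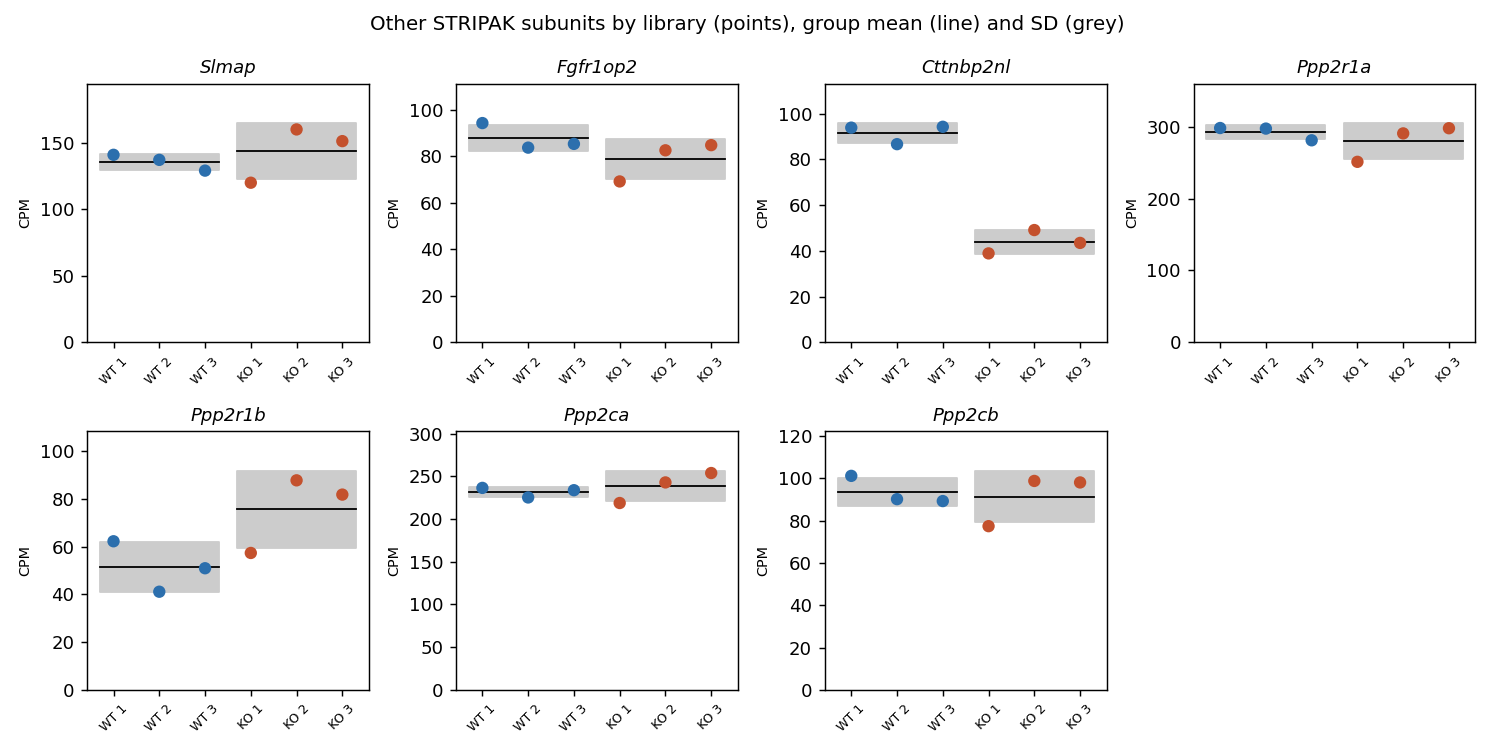
CPM (y axis, from 0) of 7 other STRIPAK subunit genes tested, in the 3 WT (blue) and 3 KO (red) libraries, with group mean (line) and SD (grey). Cttnbp2nl lies between 38.9 and 49.1 CPM in KO and between 86.7 and 94.3 CPM in WT, while each of the other 6 genes overlaps between the genotypes.

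A further list held 14 genes linked to the GCKIII kinases, called partners here. It includes the other cerebral cavernous malformation genes Krit1 and Ccm2, the MO25 and LKB1 genes and the cascade from MEKK3 to KLF2. The CCM proteins are known to restrain that cascade in endothelium. Of the 14 genes 2, both of that cascade, fell and 0 rose, against 3.86% of all genes lower and 3.55% higher. The list median was -0.18 against 0.01. Klf2, a transcription factor gene, was at 9.07, 12.8 and 13.0 CPM in WT and at 3.85, 2.39 and 1.88 CPM in KO (4.29-fold lower, adjusted p = 0.0143). Map2k5, the kinase gene of that cascade below MEKK3, was at 39.1, 45.7 and 51.0 CPM in WT and at 28.1, 25.3 and 20.4 CPM in KO (1.84-fold lower, adjusted p = 0.0267). Groups did not overlap for either gene, a pattern that 30% of all tested genes showed. Both calls were lost without WT 2, WT 3, KO 2 or KO 3. The log2 fold changes were then -2.03, -2.02, -2.00 and -1.88 for Klf2 (adjusted p from 0.0598 to 0.0806). For Map2k5 they were -0.88, -0.79, -0.89 and -0.75 (adjusted p from 0.0994 to 0.114). Klf2 was 6.02-fold and Map2k5 2.11-fold lower without WT 1 and KO 1 together. Of 47 tested genes within 2.5 Mb of Map2k5 on chromosome 9, 24 were called lower and 0 higher, with a median of -0.81. The most abundant partner gene, Golga2, which encodes the Golgi anchor of these kinases, had a log2 fold change of -0.38 (adjusted p = 0.212). It was called lower without WT 1 and KO 1 (-0.61, adjusted p = 8.14e-06), where 48% of all genes were called.

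Of 33 tested Hippo pathway genes 1 rose and 1 fell, a share near the 7.4% of all genes called, with a median of -0.11 against 0.01. Map4k3, a kinase gene acting beside MST1 and MST2, was at 60.4, 54.3 and 58.2 CPM in WT and at 31.1, 29.8 and 31.9 CPM in KO (1.86-fold lower, adjusted p = 0.00442), with little spread in either group. Amot, which encodes a YAP-binding scaffold, was at 75.6, 74.6 and 83.7 CPM in WT and at 103, 135 and 128 CPM in KO (1.56-fold higher, adjusted p = 0.0326). Amot lies on the X chromosome, and sex markers and genotype cannot be told apart here. Of 6 tested genes within 2.5 Mb of Amot, 1 was called higher and 1 lower, with a median of -0.23. The call of Amot was lost without any single library except KO 1, with log2 fold changes of 0.63, 0.61 and 0.70 without WT 1, WT 2 and WT 3 and 0.57 and 0.61 without KO 2 and KO 3 (adjusted p from 0.0563 to 0.147). Map4k3 was 1.83-fold lower and Amot 1.66-fold higher without WT 1 and KO 1 together. Map4k4, the most abundant gene of the list, had a log2 fold change of -0.24 (adjusted p = 0.376), and of -0.05 (adjusted p = 0.48) without WT 1 and KO 1. Yap1 and Wwtr1, which encode YAP and TAZ and were named after their values had been seen, had log2 fold changes of 0.36 and -0.41 (adjusted p = 0.169 and 0.0773). Both were called without WT 1 and KO 1, at 0.51 and -0.54 (adjusted p = 6.28e-05 and 1.39e-05), against 48% of all genes called there.

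Of 22 YAP and TEAD target genes, 2 of which are also in the Hippo list, 3 rose and 1 fell, against 3.55% of all genes higher and 3.86% lower, with a median of -0.01 against 0.01. Nt5e and Igfbp3 rose 4.94-fold and 4.38-fold, the first from 3.13 ± 0.65 to 15.5 ± 0.43 CPM and the second from 3.33 ± 0.63 to 14.6 ± 0.74 CPM (SD, n = 3; adjusted p = 0.00217 and 0.00248). Asap1 rose 1.68-fold (adjusted p = 0.0371) and Ccdc80 fell 2.18-fold (adjusted p = 0.00694). The call of Asap1 was lost without WT 2 (log2 fold change 0.68), WT 3 (0.73), KO 2 (0.67) or KO 3 (0.71), with adjusted p from 0.123 to 0.164. With WT 1 and KO 1 both left out, Nt5e, Igfbp3 and Asap1 were 5.11-fold, 4.15-fold and 1.96-fold higher and Ccdc80 was 2.46-fold lower. Axl, the most abundant target, was not called (-0.08, adjusted p = 0.85), but was called higher without WT 1 and KO 1 (0.19, adjusted p = 0.00646). In that setting 48% of all genes were called.

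The targets Ccn1, Ccn2 and Ankrd1, named after their values had been seen, had the same 3 libraries on top as Stk24. Myof, Amotl2, Lats2, Axl, Crim1 and Ptpn14 of the target list did so too, and the remaining targets did not. Gadd45a went the other way, with WT 1, KO 2 and KO 3 as its 3 lowest libraries. The share of all tested genes with this pattern was not counted. Ccn1 was at 463, 128 and 119 CPM in WT and at 123, 377 and 400 CPM in KO. Ccn2 was at 270, 49.6 and 50.4 CPM in WT and at 37.0, 123 and 134 CPM in KO. Ankrd1 was at 48.9, 7.95 and 8.08 CPM in WT and at 6.91, 27.8 and 24.96 CPM in KO. Adjusted p was 0.817, 0.855 and 0.955 for the 3 genes with all libraries. Their log2 fold changes were 1.65, 1.36 and 1.72 without WT 1 and KO 1, where all 3 were called (adjusted p = 2.53e-09, 3.21e-08 and 9.62e-07), against 0.34, -0.33 and -0.12 with all libraries.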

How the data were processed

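RNA of 3 WT and 3 KO libraries was sequenced with a directional kit, per the labels' protocols. The authors deposited raw counts of reads for each gene symbol. The submitters' processing notes name Trim Galore 0.6.6, HISAT2 2.2.1 and a human build, although the symbols are those of mouse. Counter, strand setting and annotation: not given in the sources used here. Titles set the groups, since the genotype labels of KO 2 and KO 3 give other numbers after PME. The 9 genes and the gene lists were chosen with earlier results of these data known.

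The test was glmQLFTest of edgeR 4.0.16 (R 4.3.3) after a robust glmQLFit, with filterByExpr, TMM scaling and Benjamini-Hochberg adjustment over 15223 genes at a threshold of 0.05. The SE is the log2 fold change divided by the square root of F. Named with values are the 9 genes, Ppme1, the tested other subunits and, in each other pathway list, the genes past the threshold and the one with the highest CPM. GENCODE M21 (GRCm38), which holds 92.9% of the symbols, gave exon lengths and positions. Similar transcripts were searched with blastn 2.17.0 (E-value limit 1e-10, at least 200 bases and 95% identity). Alternatives were DESeq2 1.42.0, limma-voom (limma 3.58.1), other scaling factors and filters, a replicate block and libraries left out. No libraries were identical. A subunit listed for the comparison is not reported here. The test was tried on simulated data.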

Additional observations from a re-analysis of the deposited data

How the results depend on the processing

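The count of STRIPAK genes called was 0 under every alternative except the one without WT 1 and KO 1, where it was 3 (Strn4 and Stk25 lower, Stk24 higher). Over the other alternatives the lowest adjusted p of the 9 genes was 0.294, for Strn4. Genes called over the whole table numbered 1127, against 1957 with DESeq2 and 7408 without WT 1 and KO 1, and 332 to 1216 with 1 library left out. Same-numbered WT and KO libraries deviated from their group means in opposite directions (r = -0.51, -0.31 and -0.22). Negative r was also seen for WT 2 with KO 3 (-0.21) and WT 3 with KO 2 (-0.18). It was positive for WT 1 with KO 2 and KO 3 (0.36 and 0.32) and for KO 1 with WT 2 and WT 3 (0.39 and 0.3). Deviations within a group depend on each other, so these correlations cannot show whether the numbers pair the samples. With the replicate block, 8 genes were called in all and 0 in each of the 5 lists, Cttnbp2nl having an adjusted p of 0.119. Ppme1 itself, 4.74-fold lower with the block, was not called there (adjusted p = 0.0518).

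Without WT 1 and KO 1, 3 of 7 other subunits, 7 of 14 GCKIII partners, 23 of 33 Hippo genes and 18 of 22 YAP targets were called, against 48% of all genes. GCKIII partners called numbered 1 with library sizes alone and 0 to 2 with 1 library left out, Hippo genes 1 to 2. Some estimates changed sign. With upper-quartile factors Mob4 was at 0.012, Sike1 at 0.009, Ppp2cb at 0.031 and Ppp2r1a at 0.003, and with library sizes alone Mob4 was at 0.010, Sike1 at 0.009 and Ppp2cb at 0.027. With 1 library left out, the log2 fold changes ranged from -0.076 to 0.67 for Strip2, -0.087 to 0.14 for Pdcd10, -0.21 to 0.019 for Sike1, -0.023 to 0.15 for Stk24, -0.28 to 0.032 for Stk25, -0.10 to 0.008 for Ppp2r1a, -0.085 to 0.071 for Ppp2cb, -0.15 to 0.084 for Axl, -0.43 to 0.20 for Farp2, -0.71 to 0.97 for Ccn2 and -0.52 to 1.31 for Ankrd1. Without WT 1 and KO 1, Strn was at 0.10, Ppp2r1a at 0.023 and Ppp2cb at 0.132, none of them called, while 4 genes not called with all libraries were called with the opposite sign: Axl at 0.19 (adjusted p = 0.00646), Farp2 at 0.49 (0.00562), Ccn2 at 1.36 (3.21e-08) and Ankrd1 at 1.72 (9.62e-07). Ccn2 was at 0.17 and Ankrd1 at 0.46 with the replicate block, and Ankrd1 at 0.27 with limma-voom. The cause was not tested. Scaling moved the median of all genes by at most 0.07. Strip2 had the fewest counts of the 9 genes and the widest interval, with 40 to 44 counts in the WT and 25 to 65 in the KO libraries, and the part of depth in that width was not tested.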

Other observations

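The genes most like Stk25 over the 6 libraries, by the same measure as for Strn4 but chosen after its values had been seen, were Zbtb4, Scpep1 and Retreg3, with root mean square differences of 0.02, 0.03 and 0.03 in centred log2 CPM. Those most like Stk24 were Mad2l1, Anp32e and Ddx5 (0.02, 0.03 and 0.03), and those most like Strn3 were Smurf1, Eif1ax and Rufy3 (0.02, 0.03 and 0.03). None of these 9 genes was called by edgeR, and their adjusted p ranged from 0.43 for Smurf1 to 0.964 for Ddx5.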
